A study of Mus musculus with 8 samples.

Results

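Mouse liver in which Mxcre had been switched on was compared with liver without Mxcre at 0 and at 24 h after partial hepatectomy, times that precede the main wave of hepatocyte DNA replication. The 4 arrays, of 8 in the series, were taken by their titles: 1 array of Mxcre+ and 1 of Mxcre- liver at 0 h and 1 of each at 24 h, all on 1 slide. Of 18316 genes with a named probe, 13598 were tested, those well above background on 2 or more of the arrays. Of these, 6998 (51.5%) differed in the same direction in both pairs.

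The series design calls the Mxcre+ livers Survivin-deleted and the Mxcre- livers wild type. All the mice were of a 129/SV/B6 background, and all, the Mxcre- controls included, had been irradiated, given a bone marrow transplant and treated with poly(IC) 2 months later, 1 week before the liver was taken per the sample labels. The treatment label of the 0 h livers names no hepatectomy, and that of the 24 h livers names 24 h after it. The labels do not say which marrow was transplanted, how many animals an array held, or the sex of the animal behind each array (both sexes are named for every sample). The times are those of the titles; a protocol entry that places the analysis 1 week after hepatectomy was not used.

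Survivin, encoded by Birc5, is a member of the inhibitor of apoptosis family and a subunit of the chromosomal passenger complex, which corrects kinetochore attachments and drives cytokinesis. It is made chiefly by dividing cells. Mxcre is a Cre recombinase under the interferon-responsive Mx1 promoter, so that poly(IC), which mimics viral double-stranded RNA, switches it on in hepatocytes and also in blood-forming and other interferon-responsive cells. Partial hepatectomy brings resting hepatocytes into the cell cycle in near synchrony.

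With a single array per group, the spread between livers of a group is unknown, and the pairs of 0 and 24 h stood in for replicates. Levels are given as log2 signal, as background-corrected by the scanner software, relative to the 75th percentile of that array. Differences are Mxcre+ minus Mxcre- on that log2 scale. Mean differences over the 2 pairs carry the standard error (SE) of the limma fit with time as a block. This fit had 1 residual degree of freedom per gene, and limma moderated each gene's spread with that of all genes (2.06 prior degrees of freedom). The SE reflects how alike the 2 times were, after that moderation, and p sets the mean difference against it. Neither measures the spread between livers. The arrays were alike in quality: 61.4% to 64.0% of probes were well above background, replicate spots varied by 4.73% to 6.51%, and no probe was saturated. Of the liver's own markers, Alb stood at 10.18 and 10.26 at 0 h and at 10.11 and 10.10 at 24 h (Mxcre- first), and the 21 tested hepatocyte genes had median differences of 0.08 and -0.03. The Y-linked gene Ddx3y was not well above background on either 0 h array and stood at 1.69 and 1.26 on the Mxcre- and Mxcre+ 24 h arrays, so both arrays of the 24 h pair, and neither of the 0 h pair, had signal from it. Uty, also Y-linked, was above background on the Mxcre- array of 24 h alone. Xist, made from the inactive X chromosome, stood at 5.51 and 5.55 at 0 h and at 3.54 and 4.26 at 24 h. Of 17 tested genes that are higher in male liver, 12 were higher at 0 h and all 17 lower at 24 h in Mxcre+ liver, with medians of 0.27 and -0.43. The part of sex in the results below was not tested.

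The stretches of promoter below are shown because the genes of protein folding in the endoplasmic reticulum (ER) were the group that was most often higher in both pairs. The ER stress element (ERSE), the letters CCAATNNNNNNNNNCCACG, is a motif through which Atf6 and Xbp1 act on such genes. It was sought on both strands in 300 bases per promoter, from 250 before the start to 50 after it, in RefSeq's promoters for 27025 genes (GRCm38.p6). It was found in 37 of them (0.137%) and in 9 of the 31 listed ER folding genes that have a promoter there (29.0%), Hspa5, Hsp90b1, Calr, Canx, Pdia6, Dnajc3, Creld2, Syvn1 and Ero1b. For 4 of the 9, the 150 bases before the start are printed 5′ to 3′ along the gene, with the 2 fixed parts of the motif in capitals (CGTGG and ATTGG where it lies on the other strand).
Hspa5, chr2:34771940-34772089, plus strand: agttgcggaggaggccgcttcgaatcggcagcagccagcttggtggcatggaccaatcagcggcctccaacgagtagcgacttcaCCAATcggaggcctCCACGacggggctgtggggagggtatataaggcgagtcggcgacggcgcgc
Hsp90b1, chr10:86705445-86705594, minus strand: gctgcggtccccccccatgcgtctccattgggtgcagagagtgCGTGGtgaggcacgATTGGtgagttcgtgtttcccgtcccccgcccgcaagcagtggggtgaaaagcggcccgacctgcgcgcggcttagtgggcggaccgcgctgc
Pdia6, chr12:17266439-17266588, plus strand: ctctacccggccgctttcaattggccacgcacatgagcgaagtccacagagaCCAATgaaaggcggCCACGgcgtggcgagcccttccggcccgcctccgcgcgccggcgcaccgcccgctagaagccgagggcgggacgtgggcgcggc
Creld2, chr15:88819496-88819645, plus strand: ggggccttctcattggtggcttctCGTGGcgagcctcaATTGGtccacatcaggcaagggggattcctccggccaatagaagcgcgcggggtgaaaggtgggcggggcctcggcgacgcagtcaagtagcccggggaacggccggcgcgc

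A match is a description of the letters and not of a bound site. The ER folding list was made of the kind of genes that Atf6 and Xbp1 act on, so its share of ERSE matches is a description too. The motif begins 65 bases before the start in Hspa5, 98 in Pdia6 and 126 in Creld2. The related element ERSE-II, in which the boxes ATTGG and CCACG stand 1 base apart, was found in 12 genes (0.0444%), of which Herpud1 and Dnajb11 are ER folding genes.

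Birc5 itself was lower in both Mxcre+ livers. Its level was -0.21 in the Mxcre- and -2.75 in the Mxcre+ liver at 0 h, and -0.49 and -3.43 at 24 h. Both Mxcre+ arrays lay below both Mxcre- arrays, by 5.82-fold at 0 h and 7.71-fold at 24 h, and all 4 were well above background. The mean difference was -2.74 ± 0.17 (SE, n = 2 pairs), short of the threshold after adjustment over all genes (limma adjusted p = 0.884, unadjusted p = 0.000455). At 36 and 48 h the difference was -3.12 and -6.24, and the early minus the late difference was 1.94 ± 1.14 over all 8 arrays (limma adjusted p = 0.639). With normexp in place of the scanner's background the mean was -0.65, or -1.54 after outlying backgrounds were replaced. Both normexp settings added an offset of 50 to each signal, which by itself makes log2 differences of dim genes smaller. One probe read Birc5, and whether it lies within the deleted part is not given in the sources used here.

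The partners of Survivin differed by less. Incenp, the scaffold of the passenger complex, stood at -0.32 and -0.63 at 0 h and at 0.33 and 0.08 at 24 h, a mean difference of -0.28 ± 0.12 (limma adjusted p = 0.938). Cdca8, which encodes Borealin, differed by 0.01 and -0.33, with a mean of -0.16 ± 0.16 (limma adjusted p = 0.946). Aurkb, the kinase of the complex, was not well above background on any of the 4 arrays. It was so on all 4 late arrays.

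No gene passed in the comparison of the genotypes. Limma called 0 of 13598 genes at an adjusted p of 0.05 (0% of those tested), with the smallest adjusted p at 0.884. An unadjusted p under 0.05 was found for 627 genes, of which 215 were higher (1.58% of genes tested) and 412 lower (3.03%) in Mxcre+ liver. The count of genes higher in both pairs was 3552 (26.1%) and that of genes lower in both 3446 (25.3%). At 0 h 6661 genes (49%) and at 24 h 7043 genes (51.8%) were higher in Mxcre+ liver.

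The 2 pairs had little in common over the whole array. The differences of 0 and 24 h correlated at a Pearson r of 0.028 and a Spearman rho of 0.038 across the 13598 genes, given as a description, since genes are not replicates and all 4 arrays lie on 1 slide. The same r was 0.232 for the pairs of 36 and 48 h, which lie on another slide. Of the 717 genes that differed by 2-fold or more at 0 h, 353 (49.2%) had the same sign at 24 h. Of the 466 that did so at 24 h, 236 (50.6%) had the same sign at 0 h. The sign at 1 time was thus shared by the other time for about as many of these genes as not. Such a difference in both pairs was seen for 21 higher genes (0.154% of genes tested) and 47 lower genes (0.346%).

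**Figure D1:**
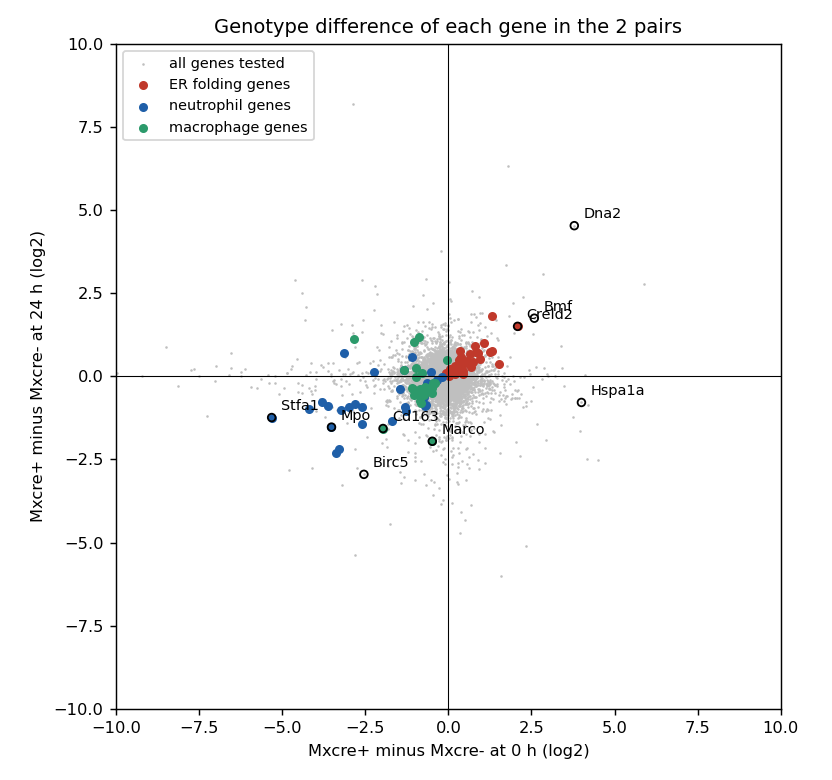
Genotype difference of each of the 13598 genes tested, at 0 h (horizontal axis) and at 24 h (vertical axis), both as Mxcre+ minus Mxcre- in log2; red, blue and green points are the ER folding, neutrophil and macrophage genes, and open rings mark named genes. The grey cloud has no tilt (r = 0.028), the red points lie almost all at the upper right and most blue and green points in the lower left, and Hspa1a is high at 0 h alone.

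Above background on all 4 arrays, 6 genes were 2-fold or more higher and 12 genes 2-fold or more lower in both pairs. The higher ones were Bmf, Creld2, Derl3, Ebf4, Prom2 and Raet1e. The lower ones were Birc5, Asic5, Cd163, Chil3, Csta1, Ctsg, Fcgr4, Fpr2, Gpr160, Mpo, Sult1e1 and Tmem130. Of the 12, 4 are in the neutrophil list (Chil3, Ctsg, Fpr2, Mpo) and 1 in the macrophage list (Cd163).

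**Figure D2:**
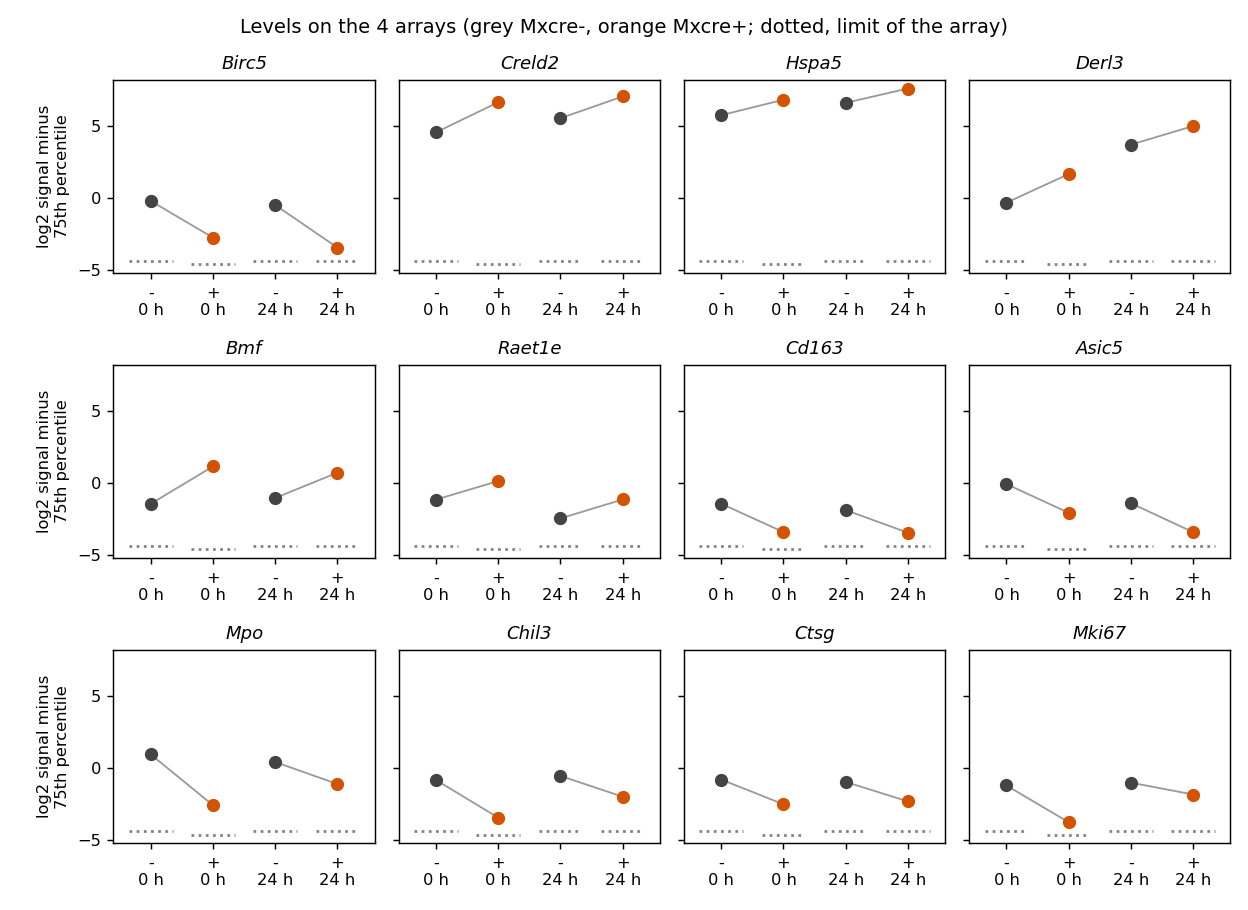
Level of 12 named genes on each of the 4 arrays (log2 signal relative to the 75th percentile of its array), Mxcre- in grey and Mxcre+ in orange, 1 array per point, with lines joining the genotypes of a time and dotted lines at the lowest level well above background on that array. In each panel both orange points lie on the same side of their grey partner, as for Birc5 (-0.21 to -2.75 and -0.49 to -3.43).

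Among the genes of the ER, Creld2, which encodes a resident protein induced when folding is disturbed, was furthest from the controls. Its level was 4.55 in the Mxcre- and 6.63 in the Mxcre+ liver at 0 h, and 5.53 and 7.03 at 24 h. Both Mxcre+ arrays lay above both Mxcre- arrays, by 4.24-fold and 2.84-fold. The mean difference was 1.79 ± 0.21 (limma adjusted p = 0.938). Derl3, a protein that takes part in removing misfolded proteins from the ER, is no member of the list and stood at -0.32 and 1.66 at 0 h and at 3.69 and 4.98 at 24 h. It was higher in Mxcre+ liver at each time (1.98 and 1.29), but the Mxcre+ array of 0 h lay below the Mxcre- array of 24 h. Its promoter holds the ERSE.

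Hspa5, the main chaperone of the ER lumen (BiP), stood at 5.74 and 6.80 at 0 h and at 6.59 and 7.58 at 24 h. The Mxcre+ liver was 2.10-fold higher at 0 h and 1.99-fold higher at 24 h, with a mean of 1.03 ± 0.13 (limma adjusted p = 0.938). Manf, a secreted protein of the stress response, differed by 1.31 and 0.77, and its levels were 3.08 and 4.39 at 0 h and 4.16 and 4.92 at 24 h. Hyou1, a nucleotide exchange factor for BiP, differed by 0.89 and 0.70. Of the co-chaperones, Sdf2l1 differed by 0.79 and 0.90, Dnajb9 by 0.65 and 0.68 and Dnajc3 by 0.55 and 0.46. Each of these genes was higher in Mxcre+ liver at both times, Manf by more at 0 h.

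Some members take misfolded proteins out of the ER. Syvn1, the ubiquitin ligase of this pathway, stood at 5.56 and 6.82 at 0 h and at 5.96 and 6.70 at 24 h. Its partner Sel1l stood at 1.00 and 1.84 and at 0.80 and 1.54. Herpud1 differed by 0.67 and 0.28 and Edem1, a mannosidase-like protein, by 0.33 and 0.48. The Mxcre+ liver was the higher one at each time for all 4 of these genes.

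Of the disulfide enzymes and lectin chaperones, Ero1b differed by 0.96 and 0.53, Pdia4 by 0.34 and 0.75, Pdia6 by 0.49 and 0.40, Hsp90b1 by 0.41 and 0.46, Canx by 0.30 and 0.30 and Calr by 0.27 and 0.17. P4hb, which is abundant in secretory cells at rest, differed by 0.03 and 0.04. Of the stress sensors, Ern1 differed by 0.05 and 0.22 and Atf6 by 0.45 and 0.16. Ddit3, a transcription factor tied to stress-induced cell death, differed by 1.53 at 0 h and 0.36 at 24 h, and Ppp1r15a, which restarts translation after stress, by -0.08 and 0.09. Kdelr3, which retrieves escaped ER proteins, was not well above background on either 0 h array and stood at -3.76 and -1.96 at 24 h. In the group, Creld2 and Kdelr3 were 2-fold or more higher at both times, the latter with both 0 h arrays below the limit, and Hspa5 was just under 2-fold at 24 h.

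In all, 30 of the 32 tested ER folding genes (93.8%) were higher in both pairs, against 26.1% of all genes, and none was lower in both. The exceptions were Kdelr1 and Ppp1r15a. The list's medians were 0.45 at 0 h and 0.41 at 24 h, against -0.01 and 0.01 over all genes tested. An unadjusted p under 0.05 was found for 16 of the 32, all higher, against 1.58% of all genes, and none passed over all genes in limma (smallest adjusted p = 0.938). Without the gene not above background on every array the count was 29 of 31. The list was chosen with results of these data known, and an ER response was already among them, so the count is a description.

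**Figure D3:**
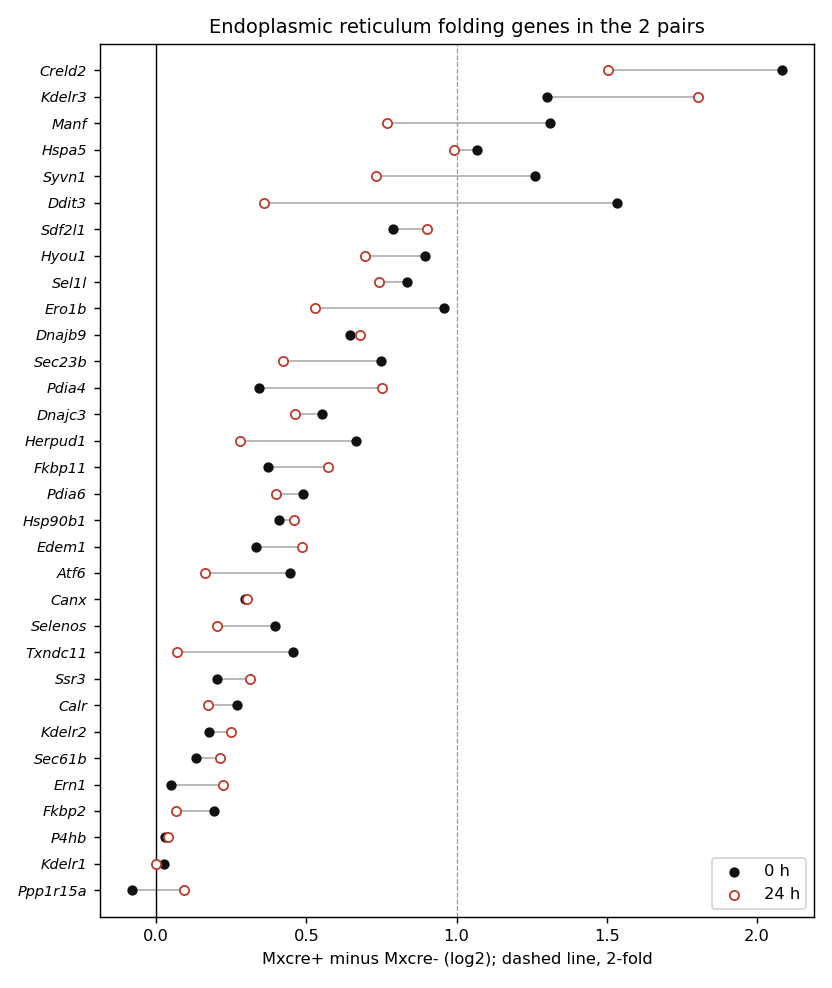
Genotype difference (Mxcre+ minus Mxcre-, log2) of the 32 tested ER folding genes at 0 h (filled) and 24 h (open), ordered by the mean, with 1 pair of arrays per point and a dashed line at 2-fold. All points but 1 at each time lie right of 0, and Creld2 (2.08 and 1.51) is at the top.

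The 9 ER folding genes with the ERSE were all higher in both pairs, with medians of 0.55 at 0 h and 0.46 at 24 h. Of the 19 tested members with a promoter entry and no such motif, 17 were higher in both, with medians of 0.37 and 0.31, and the 4 without an entry had medians of 0.67 and 0.47. Members with and without the motif overlapped widely (means of 0.22 to 1.79 with it and 0.01 to 1.55 without). Outside the list, 11 tested genes had the motif, and 4 of them were higher and 2 lower in both pairs, with medians of 0.01 and 0.13. Of all genes, 26.1% were higher and 25.3% lower in both.

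Plasma cells, which secrete antibodies, are rich in these transcripts. The 14 tested B cell genes had medians of -0.68 at 0 h and 0.16 at 24 h, or -0.05 and -0.07 with normexp after outlying backgrounds were replaced. Mzb1, a marker of antibody-secreting cells, differed by -0.36 and -0.16. The part of such cells in the ER folding values was not tested. Later, the medians of the ER folding list were 0.23 at 36 h and -0.06 at 48 h, where Creld2 differed by 1.10 and -1.18 and Hspa5 by 0.93 and -0.01. No gene's early difference passed a test against its late one (limma, 0 of 13598 called, 0%, smallest adjusted p = 0.324, 1188 genes with an unadjusted p under 0.05).

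Heat shock genes, which serve folding in the cytosol and mitochondria, were higher at 0 h as a group. All 20 were higher at 0 h, against 49% of all genes, and 10 at 24 h, against 51.8%. Their medians were 0.77 and 0.00, and the second was below 0 with both normexp backgrounds (-0.11 and -0.01). Hspa1a, an inducible Hsp70, stood at -2.91 and 1.09 at 0 h and at -1.87 and -2.65 at 24 h. Its Mxcre+ array of 0 h was thus the highest of the 4, 16.04-fold above its Mxcre- partner, and the 24 h pair had the opposite sign at -0.78. Dnajb1, a co-chaperone of Hsp70, differed by 1.42 and -0.26, and Hsp90aa1, the inducible Hsp90, by 1.16 and 0.17. In both pairs 10 heat shock genes (50%) were higher, against 26.1% of all genes. With all 20 higher at 0 h, that count is the 24 h count, where 51.8% of all genes were higher. Hsph1, a nucleotide exchange factor, was among the 10 (1.35 and 0.30, mean 0.83 ± 0.32). The difference between the 0 h and 24 h pairs was not tested, since each is 1 pair.

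The amino acid response, a separate branch of the stress response that acts through Atf4, did not follow the ER genes. Of its 20 tested genes 4 (20%) were higher and 5 (25%) lower in both pairs, against 26.1% and 25.3% of all genes. The medians were -0.48 and 0.20. Asns, asparagine synthetase, differed by -0.50 and -0.37, and Ddit4, an inhibitor of mTORC1, by -0.79 and -0.91. Atf4 itself differed by 0.51 and 0.11. Of the 21 Nrf2 targets 4 (19.0%) were higher and 9 (42.9%) lower in both pairs. Nqo1, a quinone reductase, stood at -0.06 and -0.87 at 0 h and at 0.13 and -0.41 at 24 h (mean -0.68 ± 0.14, limma adjusted p = 0.938).

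Genes of fatty acid oxidation were more often higher than lower in Mxcre+ liver. Of 44 tested, 24 (54.5%) were higher and 3 lower in both pairs, against 26.1% and 25.3% of all genes, with medians of 0.27 at 0 h and 0.10 at 24 h, and 37 and 28 were higher at the single times. The 24 h median was -0.10 with the normexp background. Slc25a20, which carries acylcarnitines into mitochondria, stood at 1.00 and 1.73 at 0 h and at 1.06 and 1.92 at 24 h. Both Mxcre+ arrays lay above both Mxcre- arrays (mean 0.80 ± 0.13, limma adjusted p = 0.938). Vnn1, a pantetheinase under PPAR alpha, differed by 1.23 and 0.56, and Acot1, an acyl-CoA thioesterase, by 1.26 and 0.43. Not all targets followed: Pdk4, which restrains glucose oxidation, differed by 0.34 and -0.83 and the fasting hormone Fgf21 by -0.79 and 0.22. An unadjusted p under 0.05 was found for 7 of the 44, all higher, against 1.58% of all genes, and none passed over all genes.

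Neutrophil genes were the group most often lower in Mxcre+ liver. Mpo, the myeloperoxidase of primary granules, stood at 0.95 in the Mxcre- and -2.56 in the Mxcre+ liver at 0 h, and at 0.43 and -1.09 at 24 h. Both Mxcre+ arrays lay below both Mxcre- arrays, by 11.4-fold and 2.88-fold, with a mean of -2.52 ± 0.58 (limma adjusted p = 0.938). Ctsg, the granule protease cathepsin G, stood at -0.78 and -2.49 and at -0.95 and -2.29 (mean -1.53 ± 0.16), and Chil3, a chitinase-like lectin, at -0.82 and -3.42 and at -0.53 and -1.97 (mean -2.02 ± 0.35). With normexp the means of Mpo, Ctsg and Chil3 were -1.02, -0.41 and -0.56. With outlying backgrounds replaced they were -1.80, -0.90 and -1.14.

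Genes of the secondary granules and the cytosol of neutrophils were lower as well. Ngp stood at -0.98 and -4.26 at 0 h and at -2.38 on the Mxcre- array of 24 h, and was not well above background on the Mxcre+ array there, so that it was 9.71-fold lower at 0 h and at least 3.997-fold lower at 24 h. Camp, the antimicrobial peptide cathelicidin, was 10.5-fold and at least 2.46-fold lower in the same way. An at least value sets the dim array at the higher of its own signal and the lowest signal well above background. The mean differences of Ngp and Camp were -2.74 and -2.85. With normexp they were -0.35 and -0.27, or -1.10 and -0.93 with outlying backgrounds replaced. S100a8, a subunit of the calcium-binding protein calprotectin, stood at 3.34 and 0.11 at 0 h and at 3.30 and 2.30 at 24 h. Its partner S100a9 stood at 5.68 and 2.70 and at 5.38 and 4.47. The 0 h difference of these cytosolic genes was larger than that of 24 h (-2.98 and -0.91 for S100a9).

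Of the 27 tested neutrophil genes, 22 (81.5%) were lower and none higher in both pairs, against 25.3% and 26.1% of all genes. All 27 were lower at 0 h and 22 at 24 h. The 5 that were higher at 24 h included Cxcr2, a chemokine receptor (0.60), and Lcn2, which hepatocytes also make (0.13). The medians were -2.24 and -0.88, or -1.71 and -0.88 with dim arrays at their bound. With normexp the medians were -0.56 and 0.11, and with outlying backgrounds replaced they were -0.69 and -0.45. The count lower in both pairs was 9 of 27 with normexp and 19 with outlying backgrounds replaced. The size, the count and the sign of the 24 h median thus depend on the background correction and the offset that came with normexp. Their parts were not told apart. Over the 18 genes above background on all 4 arrays 14 were lower in both, and the medians were -1.32 and -0.86. An unadjusted p under 0.05 was found for 14 of the 27, all lower, against 3.03% of all genes, and none passed over all genes in limma (smallest adjusted p = 0.938). In a whole liver, fewer cells of a type and less RNA per cell cannot be told apart.

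Macrophage genes were lower by less. Cd163, the scavenger receptor for haemoglobin, stood at -1.43 and -3.39 at 0 h and at -1.87 and -3.43 at 24 h. Both Mxcre+ arrays lay below both Mxcre- arrays, by 3.90-fold and 2.96-fold (mean -1.77 ± 0.17, limma adjusted p = 0.938). With normexp the mean was -0.26, or -0.68 with outlying backgrounds replaced. Markers of Kupffer cells, the resident macrophages of the liver, differed in the same direction, with Timd4 at -0.87 and -0.75, Clec4f at -0.84 and -0.48, Vsig4 at -0.48 and -0.50 and Cd5l at -1.03 and -0.56. The general macrophage genes Csf1r (-0.78 and -0.42), Adgre1 (-0.57 and -0.43) and C1qa (-0.72 and -0.55) lay in the same range. Lyz2 was lower at 0 h and higher at 24 h (-2.85 and 1.13), as was Cd14, the lipopolysaccharide co-receptor (-0.88 and 1.19).

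In all, 21 of the 28 tested macrophage genes (75%) were lower and none higher in both pairs, against 25.3% and 26.1% of all genes, with medians of -0.84 and -0.35, and 13 had an unadjusted p under 0.05, all lower, against 3.03% of all genes. Other cell types had these values. The 28 endothelial genes had medians of -0.11 and -0.06, with 13 (46.4%) lower in both pairs. The medians were -0.77 and -0.02 for the 17 T and NK cell genes and -0.17 and -0.52 for the 11 erythroid genes. They were 0.03 and 0.17 for the 25 stellate cell genes. Col3a1, a fibrillar collagen, stood at 0.80 and 1.27 at 0 h and at 1.26 and 2.12 at 24 h (mean 0.67 ± 0.17, limma adjusted p = 0.938). Haemoglobin transcripts were lower in Mxcre+ liver at each time, with Hba-a1 at -0.48 and -0.66.

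**Figure D4:**
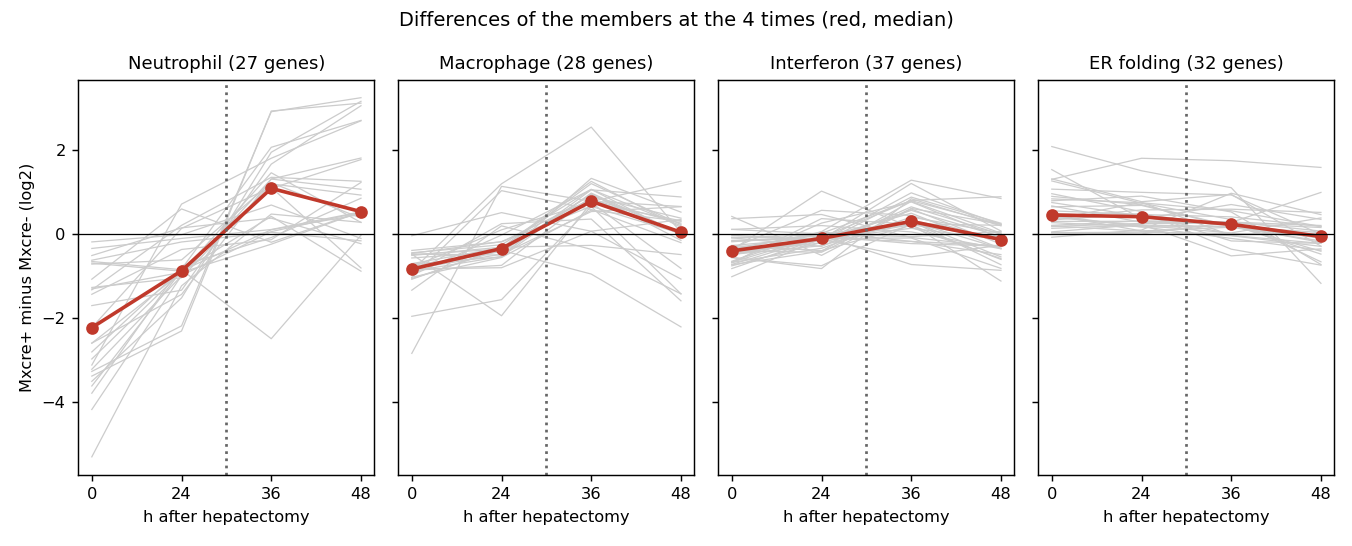
Genotype difference (Mxcre+ minus Mxcre-, log2) of each tested neutrophil, macrophage, interferon-stimulated and ER folding gene (grey lines) at 0, 24, 36 and 48 h, with the list's median in red and a dotted line between the slides of the early and late arrays; each time is 1 pair of arrays. The neutrophil medians run from -2.24 and -0.88 in the early pairs to 1.09 and 0.53 in the late pairs.

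At 36 and 48 h the neutrophil medians had the opposite sign, at 1.09 and 0.53, and the macrophage medians were 0.78 and 0.04. Camp differed by 2.93 and 3.12 there and Ngp by 2.91 and 3.25. The early minus the late difference was -5.88 ± 0.42 for Camp and -5.08 ± 0.85 for Mpo, neither past the threshold over all genes (limma adjusted p = 0.367 and 0.560). The late pairs also differed in Y-linked signal and lie on another slide.

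Interferon-stimulated genes matter here because poly(IC) raises interferon and the Mx1 promoter that drives Mxcre answers to it. Of 37 tested, 26 (70.3%) were lower and 2 higher in both pairs, against 25.3% and 26.1% of all genes, with medians of -0.41 at 0 h and -0.11 at 24 h. Usp18, which damps interferon signalling, stood at 0.17 and -0.40 at 0 h and at 0.31 and -0.45 at 24 h. Rsad2, the antiviral protein viperin, stood at -1.09 and -1.65 and at -0.23 and -1.06. Ifit1 differed by -0.74 and -0.41, while Bst2, which tethers virus particles, differed by 0.36 and 0.46. An unadjusted p under 0.05 was found for 5 lower genes and 1 higher gene, against 3.03% and 1.58% of all genes. The macrophage list, whose cells also express many of these genes, lay lower as well (medians of -0.84 and -0.35), and its part was not tested.

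Chemokine genes were lower at 0 h, with a median of -1.08 over the 21 tested and 0.00 at 24 h. In both pairs 9 (42.9%) were lower and 1 (4.76%) higher, against 25.3% and 26.1% of all genes. The 0 h median was -0.44 with normexp and -0.22 with outlying backgrounds replaced. Ccl2, which draws monocytes, stood at -2.04 and -2.65 at 0 h and at 0.60 and -0.10 at 24 h (mean -0.65 ± 0.13, limma adjusted p = 0.938), and Cxcl10, an interferon-induced chemokine, differed by -0.54 and -0.97. The acute phase genes had medians of -0.35 and 0.11. Saa1, an acute phase protein of hepatocytes, stood at 8.56 and 5.90 at 0 h and at 10.26 and 10.16 at 24 h, so its difference of -2.66 was seen at 0 h and was -0.10 at 24 h. The neutrophil medians of the same pairs were -2.24 and -0.88, and whether these values go together was not tested.

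Cell cycle genes were low in these livers, and 20 of the 39 mitosis genes on the array were above background on fewer than 2 of the 4 arrays. Of the 19 tested, 12 (63.2%) were lower and none higher in both pairs, against 25.3% and 26.1% of all genes. The medians were -0.05 and -0.68. However, the 0 h median was above 0 with quantile normalisation (0.04), with the deposited matrix (0.03) and with normexp after outlying backgrounds were replaced (0.10). The 24 h median was 0.02 with plain normexp. All 19 were lower at 24 h, so the 12 lower in both pairs are those lower at 0 h. At 0 h 7 were higher, against 49% of all genes. The count lower in both was 8, with 1 higher, under quantile normalisation and likewise with the deposited matrix. It was 5 with outlying backgrounds replaced. Mki67, the proliferation marker, stood at -1.19 and -3.73 at 0 h and differed by -0.82 at 24 h (mean -1.68 ± 0.51, limma adjusted p = 0.938, and -1.05 over its probes). At 24 h Cdc20, which activates the anaphase-promoting complex, differed by -1.29 and the mitotic kinase Plk1 by -1.01, after -0.05 and -0.05 at 0 h.

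The S phase genes showed no side, with medians of 0.02 and -0.00. In both pairs 7 of 33 (21.2%) were higher and 7 (21.2%) lower, against 26.1% and 25.3% of all genes. Mcm10, which helps to start replication forks, was the furthest down (-0.82 and -0.69, mean -0.75 ± 0.13), and Mcm2, a subunit of the replicative helicase, differed by 0.40 and 0.27. Dna2, a nuclease and helicase of DNA ends, led the higher genes of the array by rank. It was well above background only on the Mxcre+ arrays (-1.80 at 0 h and -1.98 at 24 h), at least 5.92-fold and at least 5.24-fold higher, and its limma adjusted p was 0.884. A single probe for it was above background, and with the mean over all its probes the difference was 2.18 in place of 4.16. With normexp it was 0.28, or 1.10 with outlying backgrounds replaced.

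Of the G1 and growth genes, 5 of 25 (20%) were higher and 8 (32%) lower in both pairs, against 26.1% and 25.3% of all genes. Egr1, an immediate early transcription factor, stood at 0.70 and -0.29 at 0 h and at 4.19 and 3.14 at 24 h, with a mean difference of -1.02 ± 0.12 (limma adjusted p = 0.938). Myc stood at -0.43 and -1.02 and at 1.42 and 0.67. The Mxcre+ liver was lower in each pair, while both 24 h arrays lay above both 0 h arrays for these genes.

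Apoptosis regulators are of interest as Survivin belongs to an inhibitor of apoptosis family. Of 30 tested, 6 (20%) were higher and 15 (50%) lower in both pairs, against 26.1% and 25.3% of all genes. The medians were -0.10 and -0.02. Bmf, a BH3-only protein that promotes cell death, stood at -1.43 and 1.16 at 0 h and at -1.03 and 0.72 at 24 h. Both Mxcre+ arrays lay above both Mxcre- arrays, by 6.01-fold and 3.36-fold on the brighter probe (mean 2.17 ± 0.27, limma adjusted p = 0.938). The other probe for Bmf above background differed by -0.73 at 0 h and 0.49 at 24 h, and the mean over probes was 0.68, so the size rests on the probe chosen. With normexp the brighter probe gave 1.05. Bcl2l11, another BH3-only gene, was on the other side (-0.40 and -0.93), and Bax, an effector at the mitochondrion, differed by 0.17 and 0.43. Bcl2l1, which protects from death, differed by -0.01 and 0.01. Bmf was lower at 36 h (-0.92) and near the control at 48 h (0.05). The p53 targets had medians of 0.05 and -0.06, with 6 of 24 (25%) higher and 7 (29.2%) lower in both.

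Of the metabolic lists, only fatty acid oxidation had more of its genes higher in both pairs than the 26.1% of all genes. Of 20 bile acid genes 1 (5%) was higher and 7 (35%) lower in both pairs, against 25.3% of all genes lower. Of 34 cytochrome P450 and conjugation genes 3 (8.82%) were higher and 10 (29.4%) lower. Of 32 urea cycle and amino acid genes, none was higher and 11 (34.4%) lower in both pairs, with Bhmt, which remethylates homocysteine, at -0.70 and -0.58 and Cth, which makes cysteine, at -0.61 and -0.63. Of the 21 clock genes 9 (42.9%) were lower and 1 (4.76%) higher in both, against 25.3% and 26.1% of all genes. Nr1d1, a repressor of the clock, differed by -1.84 and -0.71 (a mean of -1.27, or -0.30 over its probes). The times of day of the livers are not in the labels. Cholesterol synthesis (4 of 24 higher, 5 lower), fatty acid synthesis (4 of 24 and 4) and glucose metabolism (6 of 24 and 4) held no more members of 1 sign than all genes did. The sulfotransferase Sult1e1, which inactivates oestrogens, stood at 3.75 and 2.54 at 0 h and at 5.50 and 3.24 at 24 h, and the bile acid enzyme Cyp7b1, male-biased in mouse liver, at 3.95 and 3.42 and at 5.38 and 3.44.

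**Figure D5:**
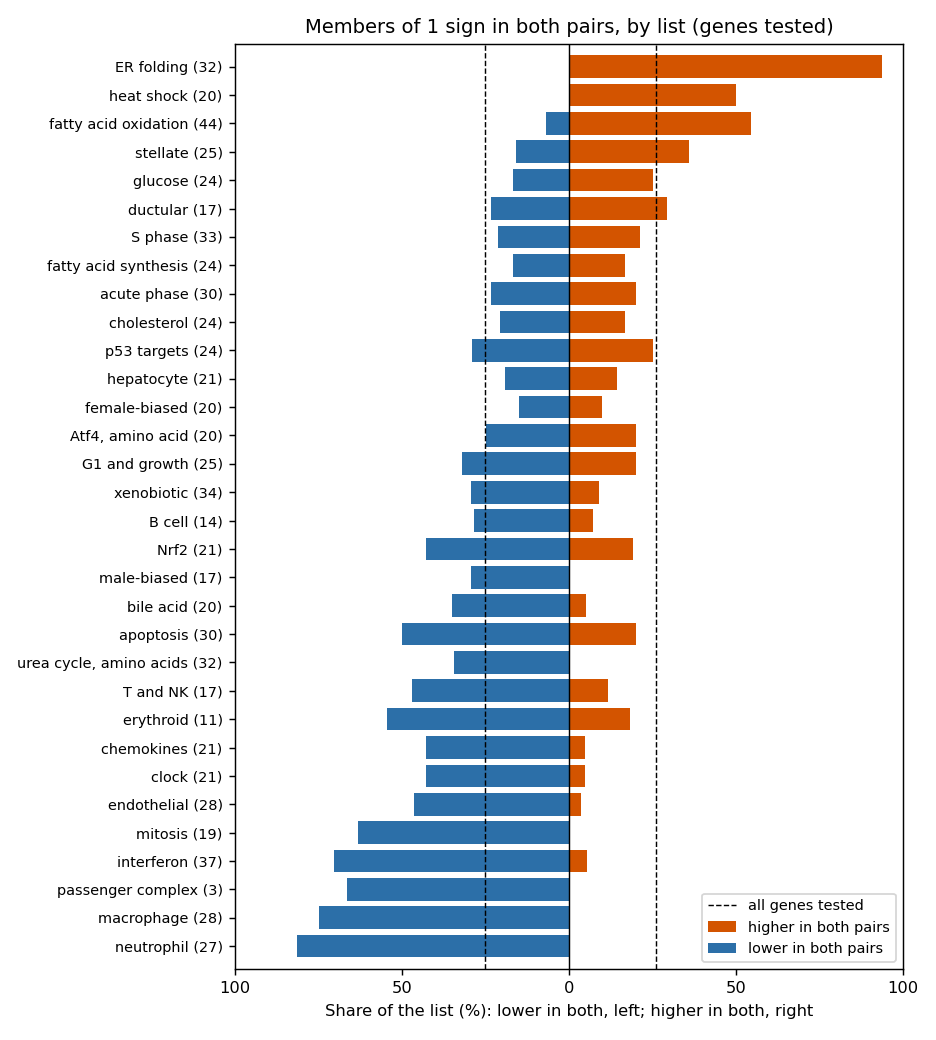
Share of each list's tested genes (number in brackets) that was higher (orange, right) or lower (blue, left) in Mxcre+ liver in both pairs; dashed lines give the same for all genes tested (26.1% and 25.3%). The ER folding list reaches 93.8% on the right and the neutrophil list 81.5% on the left, while the cholesterol and fatty acid synthesis lists stay inside both dashed lines.

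The remaining genes that led by rank were mostly dim. Raet1e, a ligand of the NKG2D receptor of natural killer cells, stood at -1.14 and 0.14 at 0 h and at -2.44 and -1.13 at 24 h (mean 1.29 ± 0.12, limma adjusted p = 0.938), and was also higher at 36 and 48 h (0.83 and 1.07). Asic5, an ion channel that answers to bile acids, stood at -0.06 and -2.06 and at -1.39 and -3.40 (limma adjusted p = 0.884), which is 3.98-fold and 4.02-fold lower, and was higher at 36 h and lower at 48 h (-2.83). Kctd4, Ebf4, Npcd, Psors1c2, Prom2 and Alx4 complete the 12 highest ranks and Cstdc5, Olfr1434, Imp4 and Zfp677 the 12 lowest. Of these 10 genes, Ebf4, Prom2 and Alx4 were well above background on all 4 arrays. With the mean over probes the difference fell short of the chosen probe's for Kctd4 (0.54 against 4.06), Ebf4 (0.33 against 1.31), Npcd (0.47 against 1.17), Prom2 (0.72 against 1.46) and Alx4 (0.34 against 1.06).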

How the data were processed

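Mouse liver RNA was read on 8 Agilent 1-colour arrays, 4 of them used here. The intensity values were background-subtracted by Feature Extraction 10.7.3.1 before they were deposited, per the file headers (10.7 in the submitters' processing notes). The deposited matrix holds log2 values with a median of 5.51 in every column; its scale and centring are not stated, each column correlated with its own array at 0.999 or more, and it served as an alternative.

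Each array was scaled here to its 75th percentile on the log2 scale. Control spots and outlier-marked spots were dropped. Of 41174 probes 41056 were kept, and 26839 matched a RefSeq accession (18316 genes, 6502 with several probes, read by the probe of highest mean signal). Genes that the scanner marked well above background on 2 or more arrays were tested with limma 3.58.1 (R 4.3.3), time as a block, Benjamini-Hochberg over all genes. The early and late differences were compared over 8 arrays with 2 residual degrees of freedom.

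Members and the 33 lists (852 names, 813 measured) were chosen with earlier results of these data known. Named genes were Birc5, the 12 per direction of 1 sign in both pairs ranked by the smaller difference, well above background in the brighter genotype, and up to 5 per direction and list. Members outside that rule were named for their role after their values were seen. The fit was tested on simulated data, with independent noise drawn at the spread it had estimated. Such data cannot show how the fit deals with the unknown spread between livers. The normexp alternative was planned with mean spot signals and used the median spot signals that were deposited. Both normexp settings added an offset of 50 before the log2 step. P-values rest on the spread between single arrays of the times compared, moderated by that of all genes, and not on a spread between livers. Some single-gene results are not reported here.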

Additional observations from a re-analysis of the deposited data

Results flagged for a closer look

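In 6 gene lists both early medians of the genotype difference (Mxcre+ minus Mxcre-, log2) had 1 sign and both late medians the other. These differences between early and late were not tested for the lists, and the early and late arrays lie on different slides, so that time and slide cannot be told apart. The neutrophil medians were -2.2353, -0.8802, 1.0851 and 0.5308 at 0, 24, 36 and 48 h. The macrophage medians were -0.8386, -0.3486, 0.7756 and 0.0395 at the same times. The heat shock medians were 0.7667, 0.0044, -0.0597 and -0.1495. The clock medians were -0.0187, -0.4374, 0.0021 and 0.2511. The G1 and growth medians were -0.0981, -0.032, 0.0085 and 0.069, and the endothelial medians were -0.1111, -0.0618, 0.014 and 0.0121, which lie close to 0. Tested gene by gene over the 8 arrays, none was called. The early minus the late difference was -5.82 ± 0.43 for Ngp (limma adjusted p = 0.367).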

How the results depend on the processing

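Of the results recomputed under 13 alternatives, the single-gene ones covered 228 genes taken by the rule for named genes, Birc5 included. Their mean differences kept their direction except in the cases given here, and the cause was not tested where none is named. Genes named for their role alone were not checked in this way. Adjusted p values are limma's. The planned normexp background departed furthest. It called 6 genes higher and 19 lower and 1 early against late, left 1562 genes higher and 1292 lower in both pairs, 2 and 2 past 2-fold in both, and gave a correlation of the pairs of -0.519. Its counts in both pairs were 6 for mitosis, 3 for heat shock, 4 for urea cycle and amino acids, 10 for interferon and 9 for neutrophil genes. Some spots there had a local background far above their signal (lowest difference -19753). With those backgrounds replaced, an alternative chosen after seeing the data, no gene was called, 5 and 7 genes passed 2-fold and the mitosis count was 5. With genes above background on all 4 arrays, 6 and 12 genes passed 2-fold and the neutrophil count was 14. Without a filter, 6064 genes were lower in both pairs, 51 and 141 passed 2-fold and the mitosis count was 28. With dim arrays at their bound, 10 and 26 passed 2-fold. With 1 pair left out, the counts were those of the sign in the single pair that remained, and not of 2 pairs that agreed. Their fits took the residual spread from the late arrays. These counts were 6661 to 7043 genes higher and 6555 to 6937 lower, and 176 to 208 and 290 to 509 past 2-fold. In the lists they were 12 to 19 for mitosis and 10 to 20 for heat shock. They were 28 to 37 for fatty acid oxidation and 18 to 25 for urea cycle and amino acids. The ER folding count was 23 to 31 over all of these, the single-pair counts included. The Birc5 difference was -0.65 with normexp, -1.54 with backgrounds replaced and between -2.54 and -2.95 otherwise, with adjusted p from 0.293 to 1. An unadjusted p under 0.05 was found for 149 to 885 genes.

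Mean differences of the opposite sign under normexp were those of Uhrf1 (-0.0098), Fen1 (-0.0077), Chaf1a (-0.0358), Hgf (-0.0193), Bad (-0.0161), Psat1 (-0.0768), Hsd17b7 (0.0050), Pcx (0.0202), Ciart (0.0040), Per3 (0.0144), Mt1 (0.0151), Cyp3a44 (0.0036), F2 (0.0531), Prf1 (-0.0109), Gata1 (-0.0055), Des (-0.0092), Dcn (0.0948), Sox9 (-0.0146) and Ehf (-0.0217). With the mean over probes they were those of Met (-0.0275), Cyp3a44 (0.3702) and Ehf (-0.3312), and with backgrounds replaced those of Tek (0.0310) and Dcn (0.0357). The fit is paired by time (2 pairs), and no block on the replicate number was possible, since that number is the same for all arrays. Without the block on time 156 genes had an unadjusted p under 0.05 and none was called.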
